A study of Mus musculus with 33 samples.

Results

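Bone morphogenetic protein 4 (BMP4) signalling was followed through 9 genes, picked by name out of the 55487 genes listed for each library, namely the ligand gene *Bmp4*, the receptor gene *Bmpr1a*, the target genes *Id1*, *Id2*, *Id3*, *Msx1*, *Msx2* and *Hand1*, and *Smad6*, a target that feeds back on the pathway. All 9 were present in every table. RNA-seq covered 33 libraries of C57BL/6 mouse embryonic stem cells (ESCs) in 11 groups of 3, and the study asked how the loss of heterochromatin protein 1 (HP1), a reader of H3K9 methylation, or of the H3K9 methyltransferase SETDB1 alters gene expression in ESCs. In the study's text *Bmp4*, *Msx2* and *Hand1* were named from these same samples, so their direction in the triple mutant is not independent evidence.

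The Hp1 mutants carried homozygous deletions (Δ/Δ) of *Hp1α*, of *Hp1β* or of *Hp1γ* in the single mutants, of *Hp1α/β*, of *Hp1α/γ* or of *Hp1β/γ* in the double mutants, and of all 3 genes in the triple mutant (*Hp1α/β/γ* Δ/Δ). The single and double mutants were constitutive CRISPR/Cas9 knockouts expanded from individual clones, and the triple mutant was derived from *Hp1α/β* mutant cells with a floxed *Hp1γ* gene by transfection of Cre. A first set of *wild-type* libraries (set A) accompanied the triple, *Hp1α/β* and single mutants in the deposited tables, and a second (set B) accompanied *Hp1α/γ* and *Hp1β/γ* mutant ESCs. The labels call set A wild type, whereas a legend of the study describes the control of the triple mutant as its floxed parental cells, lacking *Hp1α* and *Hp1β*, that received a control vector. The labels were followed, and *Cbx1* (HP1β) was at 439 ± 7.69 CPM (counts scaled to library size) in set A against 96.6 ± 1.76 CPM in *Hp1α/β* mutant ESCs (SD, n = 3 each). Comparisons of the triple mutant with set A rest on that label. *Setdb1* F/F ESCs, in which the gene is floxed but intact, were the control of *Setdb1* Δ/Δ cells, which lost exons of the gene through Cre. All cells were grown in serum with LIF on mouse embryonic fibroblast feeders, which were removed by plating before RNA was taken. No label ties the libraries of a group to separate cultures, although the study calls them biological replicates, so a p-value measures the spread between these libraries.

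Total counts per library lay between 17331005 and 25743236. Counts of each targeted gene were lower in all libraries of mutants lacking it than in the matching controls, but were not 0 in any. The smallest of these differences were those of *Cbx5* (HP1α) in triple mutant cells, with a log2 fold change of −0.81, and of *Setdb1* in *Setdb1* Δ/Δ cells, with −0.93. Replicate 2 of *Hp1α/γ* mutant ESCs stood apart from the other 2 libraries of its group. Over genes with a mean of at least 5 CPM, its root mean square deviation from the group mean was 0.38 on the log2(CPM + 1) scale, against at most 0.139 in any library of the other 10 groups. Log2 fold changes of *Bmp4*, *Bmpr1a*, *Id1*, *Id3* and *Hand1* in that group are therefore also given without it. The *Smad6* values and the marker levels of the group include it.

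BMP4 binds a complex of type I receptors, among them BMPR1A, and type II receptors on the cell surface, and the activated type I receptor phosphorylates SMAD1, SMAD5 and SMAD9, which enter the nucleus with SMAD4. The *Id* genes, which encode inhibitors of basic helix-loop-helix transcription factors, are among their most direct targets, and in ESCs grown in serum their induction helps LIF to maintain self-renewal. BMP signalling also acts in the early embryo in mesoderm, trophoblast and surface ectoderm, where *Msx1*, *Msx2* and *Hand1* encode transcription factors.

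RefSeq promoter sequences (GRCm38.p6), spanning 250 bases before to 50 bases after the annotated start, were found for 7 of the 9 genes, and *Id1* and *Hand1* had no entry. Of the genes that changed in triple mutant cells, in *Setdb1* Δ/Δ cells or in both, the 5 with an entry are shown. *Id1* and *Hand1* also changed, but could not be shown. Capitals mark GGCGCC and CAGACA, which are SMAD-binding elements, and the E-box CAGCTG, each searched on both strands. No stretches with different motifs overlapped.
*Bmp4* (chr14:46390620-46390919, minus strand): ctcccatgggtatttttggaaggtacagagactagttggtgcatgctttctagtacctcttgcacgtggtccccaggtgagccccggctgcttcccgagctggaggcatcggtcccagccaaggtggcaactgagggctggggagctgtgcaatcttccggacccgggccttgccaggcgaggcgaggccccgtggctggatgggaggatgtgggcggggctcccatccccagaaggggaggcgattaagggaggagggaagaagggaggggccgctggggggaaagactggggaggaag
*Id2* (chr12:25096043-25096342, minus strand): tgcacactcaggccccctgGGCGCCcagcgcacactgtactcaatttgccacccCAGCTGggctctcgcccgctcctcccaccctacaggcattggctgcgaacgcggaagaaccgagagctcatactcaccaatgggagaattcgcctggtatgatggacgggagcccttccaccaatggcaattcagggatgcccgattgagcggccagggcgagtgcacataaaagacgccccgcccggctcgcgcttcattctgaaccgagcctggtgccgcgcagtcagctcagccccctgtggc
*Smad6* (chr9:64022010-64022309, minus strand): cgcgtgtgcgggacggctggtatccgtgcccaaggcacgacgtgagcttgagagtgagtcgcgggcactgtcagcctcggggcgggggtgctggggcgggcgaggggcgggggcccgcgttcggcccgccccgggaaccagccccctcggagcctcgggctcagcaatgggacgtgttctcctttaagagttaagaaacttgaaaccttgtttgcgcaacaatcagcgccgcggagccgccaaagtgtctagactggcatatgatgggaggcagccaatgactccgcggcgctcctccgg
*Msx1* (chr5:37824536-37824835, minus strand): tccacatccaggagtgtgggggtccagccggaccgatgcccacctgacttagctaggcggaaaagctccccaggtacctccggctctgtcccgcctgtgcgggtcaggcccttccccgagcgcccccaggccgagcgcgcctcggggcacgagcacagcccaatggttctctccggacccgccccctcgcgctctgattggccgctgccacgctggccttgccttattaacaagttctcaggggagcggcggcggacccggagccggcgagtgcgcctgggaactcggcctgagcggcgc
*Msx2* (chr13:53472731-53473030, minus strand): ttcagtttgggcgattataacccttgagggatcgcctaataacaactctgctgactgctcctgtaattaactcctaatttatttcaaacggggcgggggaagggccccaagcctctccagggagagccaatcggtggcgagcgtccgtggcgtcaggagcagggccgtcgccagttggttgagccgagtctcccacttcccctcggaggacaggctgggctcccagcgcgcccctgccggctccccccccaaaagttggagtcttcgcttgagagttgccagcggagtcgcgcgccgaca
Among the 5, only the *Id2* promoter held a match, with 1 GGCGCC and 1 CAGCTG. Of all 32851 promoters of this length, 11.9% held GGCGCC, 21.0% held CAGACA and 16.3% held CAGCTG. The GC content of the 5 lay between 61.0% (*Msx2*) and 70.0% (*Msx1*), against a median of 52.7% over all promoters. A match is a description of the letters, and the absence of a match in this window says nothing about binding elsewhere.

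In *wild-type* ESCs the genes covered a wide range of levels. On the length-scaled values deposited as TPM, which allow levels of different genes to be compared, *Id1* was the most abundant in set A (121 ± 4.88 TPM, SD, n = 3), followed by *Id2* (63.1 TPM), *Bmpr1a* (20.8 TPM) and *Id3* (13.2 TPM). *Bmp4* (3.83 TPM), *Smad6* (2.80 TPM) and *Hand1* (2.76 TPM) were lower, and *Msx2* (0.493 TPM) and *Msx1* (0.233 TPM) were barely expressed. *Setdb1* F/F ESCs differed in this order, with *Bmp4* at 77.6 TPM and *Id2* at 10.4 TPM, and with *Hand1* at 0.12 TPM. The lines were not compared by a test here, since parental line, floxed gene and preparation cannot be told apart.

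A gene was called changed when the log2 fold change exceeded 1 in either direction and the adjusted p was under 0.05, by the quasi-likelihood test of edgeR, Benjamini-Hochberg adjusted genome-wide. In *Hp1β* mutant ESCs 7 of the 9 genes rose and none fell, where 9.1% of all genes tested were called and 2.75% were higher. In *Hp1α/β* mutant ESCs 5 rose and 1 fell, against 8.15% of all genes. In *Hp1α* and *Hp1γ* mutant ESCs 2 genes rose in each, against 4.87% and 5.59% of all genes called, while 1.56% and 2.04% of all genes were called higher. The differences between these mutants were not themselves tested. In *Hp1α/γ* mutant ESCs 3 of 8 tested genes rose and 1 fell (23.1% of all genes), and in *Hp1β/γ* mutant ESCs 4 of 9 rose (11.9%, or 7.32% higher). In triple mutant cells 4 rose and 3 fell (42.3%), and in *Setdb1* Δ/Δ cells 1 of 7 tested genes rose and 2 fell (29.9%). The gene that rose there, *Msx2*, passed the filter on low counts only through the higher group. With at least 10 counts required in every library, none rose and 2 fell. *Msx1*, which passed the filter on low counts only where a mutant was high, is in 5 of these counts. Without it 1 gene was called in *Hp1α*, 6 in *Hp1β*, 5 in *Hp1α/β*, 3 in *Hp1β/γ* and 6 in triple mutant cells, while the 2 in *Hp1γ* and 4 in *Hp1α/γ* mutant ESCs did not include it. Between the *wild-type* sets, which carry one genotype label, none of the 8 tested genes was called by edgeR (5.68% of all genes) nor by DESeq2, but 4 had an unadjusted and an adjusted p under 0.05, as had 24.8% of all genes by the adjusted p. The comparisons with set A share its 3 libraries, as do those with set B. With 3 libraries against 3, an exact permutation test cannot give a p below 0.1, so calls rest on the model fitted over all genes.

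**Figure D1:**
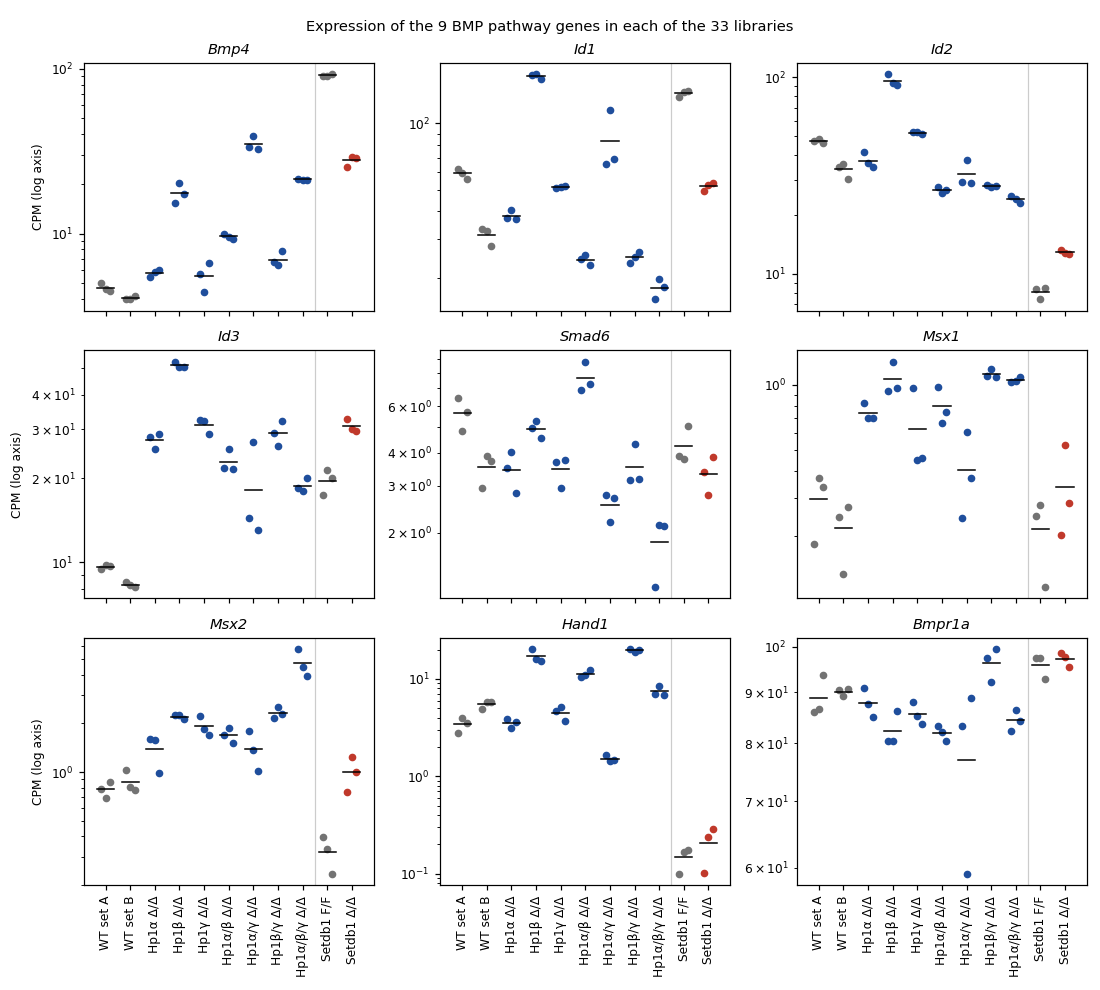
Expression of the 9 genes in the 33 libraries, in CPM on a log axis, with 1 panel for each gene and 3 points (replicates) and a bar (mean) for each group; controls are grey, Hp1 mutants blue and *Setdb1* Δ/Δ cells red. *Id1*, *Id2* and *Id3* peak in *Hp1β* mutant ESCs, *Bmp4* is highest in *Setdb1* F/F ESCs, and *Bmpr1a* lies between 77.0 and 97.3 CPM in every group mean.

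*Bmp4* (ENSMUSG00000021835, chromosome 14, 46383520 to 46390669 of GRCm38, minus strand) encodes the ligand. It was measured at 5.04, 4.57 and 4.47 CPM across *wild-type* set A and at 21.5, 21.2 and 21.2 CPM in triple mutant cells. Every library of the triple mutant lay far above every *wild-type* library. It rose 4.44-fold (log2 fold change 2.15, standard error 0.10, adjusted p = 2.86e-13, Benjamini-Hochberg, by edgeR), and the call held in all 14 alternatives. In *Hp1β* mutant ESCs *Bmp4* had 15.3, 20.3 and 17.4 CPM, a log2 fold change of 1.89 (standard error 0.13). In *Hp1α/β* mutant ESCs, with 9.99, 9.56 and 9.31 CPM, the log2 fold change was 1.02 (standard error 0.13). This last value lay at the threshold and fell to 0.99 without replicate 3 of set A, to a value just under 1 without replicate 1 of the mutant, and to 0.93 on TPM. *Hp1α* (5.43 to 6.03 CPM) and *Hp1γ* mutant ESCs (4.38 to 6.59 CPM) differed little from set A, with log2 fold changes of 0.30 and 0.24 and adjusted p of 0.119 and 0.281 by edgeR.

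Among the double mutants compared with set B (4.03, 3.99 and 4.15 CPM), *Hp1α/γ* mutant ESCs had the highest *Bmp4* CPM of any Hp1 mutant, at 33.7, 39.3 and 32.5. *Bmp4* rose 8.42-fold there (log2 fold change 3.07, standard error 0.12, adjusted p = 2.04e-05 by edgeR), and the log2 fold change was 3.03 without replicate 2. *Hp1β/γ* mutant ESCs had 6.67, 6.41 and 7.78 CPM, above every library of set B but short of the fold threshold (log2 fold change 0.78, standard error 0.13). The order of group means in CPM ran from *Setdb1* F/F ESCs (91.2 CPM) through the *Hp1α/γ* mutant, *Setdb1* Δ/Δ cells, the triple mutant and the *Hp1β*, *Hp1α/β* and *Hp1β/γ* mutants to the *Hp1α* mutant, the *Hp1γ* mutant, set A and set B. The libraries of neighbours in this order overlapped only for *Hp1α* mutant with *Hp1γ* mutant and for *Hp1γ* mutant with set A.

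In *Setdb1* Δ/Δ cells *Bmp4* moved the other way. It was at 89.99, 90.9 and 92.6 CPM in *Setdb1* F/F ESCs and at 25.4, 29.0 and 28.9 CPM in *Setdb1* Δ/Δ cells, with no overlap, and fell by 1.72 on the log2 scale (standard error 0.047, adjusted p = 8.74e-16 by edgeR). Even after this fall *Setdb1* Δ/Δ cells held more *Bmp4* CPM than any *wild-type* library. The difference between the effects of the triple mutant and of *Setdb1* loss was 3.85 on the log2 scale (standard error 0.095, adjusted p = 1.02e-19 by edgeR over 12 libraries), where 31.9% of all genes were called for such a difference, and it held in all 18 alternatives.

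The counts and the deposited TPM of *Bmp4* did not run in parallel. In triple mutant cells, where CPM had an SD of 0.187 over the 3 libraries, TPM were 71.0, 19.6 and 57.7. In set B they were 8.01, 2.97 and 3.31 at nearly equal CPM. On log2(TPM + 1) with limma the rise in the triple mutant was 3.20 against 2.15 on counts, and in *Hp1α/γ* mutant ESCs it was 2.06 against 3.07. The order of these mutants therefore turned, with a mean of 49.4 ± 26.7 TPM in the triple mutant and 21.6 ± 3.47 TPM in the *Hp1α/γ* mutant (SD, n = 3 each). The annotation lists 4 *Bmp4* transcripts, of 2064, 1633, 517 and 258 bases, the last 2 with retained introns. TPM divide by the length assigned to the gene, and the part of these transcripts in the spread was not tested. TPM also moved the median log2 fold change of all genes, from 0.04 to 0.34 in the triple mutant and from 0.01 to 0.43 in *Setdb1* Δ/Δ cells, and the direction of no call on the 9 genes was reversed by it. A non-coding gene on the other strand, *Gm15222*, overlaps *Bmp4*, and had 1 to 12 counts per library in the triple mutant and set A and 22 to 43 in the *Setdb1* groups. Whether the counting used strand is not given in the sources used here, so their reads may not be separable.

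**Figure D2:**
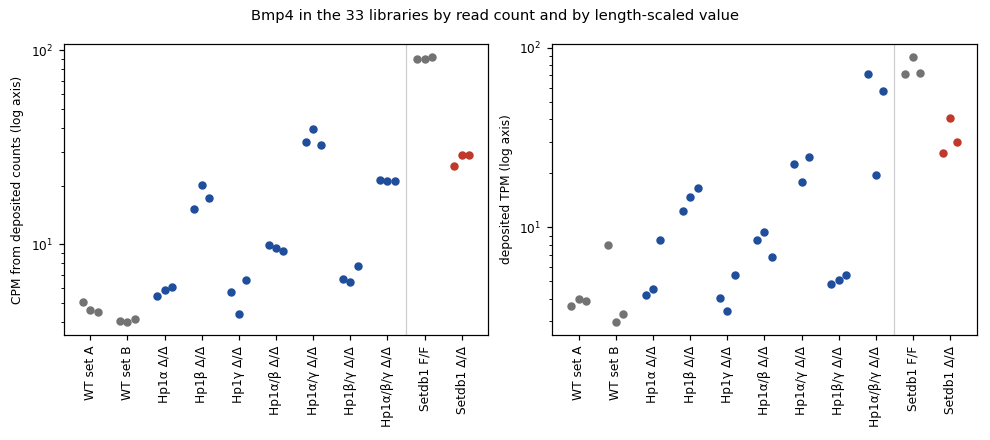
*Bmp4* in each library (points, replicates 1 to 3 from left to right) as CPM from the deposited counts (left) and as deposited TPM (right), both on log axes, by group. The 3 triple mutant libraries lie together at 21.2 to 21.5 CPM but spread from 19.6 to 71.0 TPM.

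*Bmpr1a* (ENSMUSG00000021796, chromosome 14, 34410734 to 34503341, minus strand), the type I receptor gene, was the steadiest of the 9. Set A had 86.1, 86.7 and 93.8 CPM and triple mutant cells had 82.4, 86.4 and 84.3 CPM, which overlap. Its group means spanned 77.0 to 97.3 CPM, a 1.26-fold range, against 4.17-fold for *Smad6* and 134-fold for *Hand1*. It was not called in any comparison, and its log2 fold changes across the 7 Hp1 mutants ran from −0.26 to 0.10. In the triple mutant and *Hp1α/β* mutant ESCs small differences of −0.10 and −0.12 had adjusted p of 0.0402 and 0.0379 by edgeR. TPM spread more widely, with group means from 14.4 TPM in *Hp1α/γ* mutant ESCs to 31.7 TPM in *Setdb1* Δ/Δ cells. On TPM the log2 fold changes were 0.40 in the triple mutant, 0.54 in *Setdb1* Δ/Δ cells and −0.61 in *Hp1α/γ* mutant ESCs. The medians of all genes there were 0.34, 0.43 and −0.30. The lowest library was replicate 2 of *Hp1α/γ* mutant ESCs at 59.2 CPM, and without it that group's log2 fold change was −0.07. An antisense gene within *Bmpr1a*, *Gm17110*, had at most 4 counts in any library.

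*Id1* (ENSMUSG00000042745, chromosome 2, 152736251 to 152737410, plus strand) moved in opposite directions among the Hp1 mutants. It was at 62.2, 59.9 and 56.3 CPM in set A, at 166, 167 and 159.7 CPM in *Hp1β* mutant ESCs, and at 15.9, 19.7 and 18.1 CPM in triple mutant cells. The 3 groups did not overlap, and the *Hp1β* mutant and the triple mutant were the highest and the lowest of all 11 groups. *Id1* rose 2.73-fold in *Hp1β* mutant ESCs (log2 fold change 1.45, standard error 0.05, adjusted p = 8.45e-09 by edgeR). It fell by 1.31 on the log2 scale in *Hp1α/β* mutant ESCs (24.4, 25.4 and 22.8 CPM; standard error 0.06, adjusted p = 1.22e-11) and by 1.76 in triple mutant cells (standard error 0.069, adjusted p = 1.25e-14).

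The falls of *Id1* depended on the *wild-type* set. Set B held 33.1, 32.6 and 27.9 CPM, a log2 difference of −0.93 from set A (standard error 0.067, adjusted p = 4.66e-08 by edgeR) that stopped just short of the fold threshold. With set B as the control the log2 fold change of *Id1* was −0.82 in the triple mutant and −0.38 in *Hp1α/β* mutant ESCs, both under the threshold. Conversely, the rise in *Hp1α/γ* mutant ESCs (65.4, 115 and 69.2 CPM; log2 fold change 1.36 against set B, 1.11 without replicate 2) became 0.44 against set A and 0.94 on TPM. In *Hp1β/γ* mutant ESCs the value was −0.33 against set B and −1.26 against set A. The direction was the same with either set in each of these 4 mutants, and the rise in *Hp1β* mutant ESCs was 2.39 against set B. In the other single mutants, where *Id1* was not called, the sign turned, from −0.63 against set A to 0.31 against set B in *Hp1α* and from −0.21 (adjusted p = 0.0015 by edgeR) to 0.74 (adjusted p = 8.3e-07) in *Hp1γ* mutant ESCs.

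In *Setdb1* Δ/Δ cells *Id1* also fell, from 132, 139 and 139.7 CPM to 49.6, 52.5 and 53.4 CPM, by 1.41 on the log2 scale (standard error 0.037, adjusted p = 5.37e-16 by edgeR). On TPM, where the median of all genes was 0.43, the log2 fold change was −0.91. The falls in the triple mutant and in *Setdb1* Δ/Δ cells differed by −0.38 (standard error 0.078), under the threshold for a difference although the adjusted p was 0.000193, and with *Hp1α/β* mutant ESCs as the control of the triple mutant this difference was 0.91. *Id1* and *Bmp4* thus fell together in *Setdb1* Δ/Δ cells, rose together in *Hp1β* and *Hp1α/γ* mutant ESCs, and went opposite ways in *Hp1α/β* mutant ESCs and the triple mutant.

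*Id2* (ENSMUSG00000020644, chromosome 12, 25093799 to 25097140, minus strand) followed *Id1* in part. It was at 47.5, 48.2 and 46.1 CPM in set A, 103, 93.7 and 91.4 CPM in *Hp1β* mutant ESCs, and 25.0, 24.0 and 22.9 CPM in triple mutant cells, again without overlap. Its log2 fold change was 1.01 in the *Hp1β* mutant (standard error 0.055, adjusted p = 1.54e-07 by edgeR) and −1.01 in the triple mutant (standard error 0.058, adjusted p = 5.41e-12). Both sat at the fold threshold. The former dropped to 0.96 without replicate 1 of the mutant, 0.99 without replicate 3 of set A and 0.96 on TPM, and the latter was lost in 7 of 14 alternatives (−0.52 with set B as the control, −0.98 without replicate 3 of the triple mutant). After the loss of *Setdb1*, *Id2* was higher, 13.2, 12.7 and 12.6 CPM against 8.42, 7.42 and 8.48 CPM in *Setdb1* F/F ESCs, but under the fold threshold (log2 fold change 0.66, adjusted p = 5.11e-06), which it passed at 1.06 on TPM. The effects in the triple mutant and in *Setdb1* Δ/Δ cells differed by −1.69 (standard error 0.10, adjusted p = 8.98e-13 by edgeR). With *Hp1α/β* mutant ESCs as the control of the triple mutant this difference was −0.87, under the threshold.

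*Id3* (ENSMUSG00000007872, chromosome 4, 136143497 to 136145755, plus strand) was higher than *wild-type* in every Hp1 mutant and rose in 6 of the 7. It was at 9.43, 9.75 and 9.67 CPM in set A and at 52.6, 50.3 and 50.4 CPM in *Hp1β* mutant ESCs, a 5.25-fold rise (log2 fold change 2.39, standard error 0.065, adjusted p = 1.35e-09 by edgeR). *Hp1α* (28.2, 25.5 and 29.0 CPM) and *Hp1γ* mutant ESCs (32.4, 32.3 and 28.9 CPM) were also well above set A, with log2 fold changes of 1.53 and 1.70. The log2 fold change was 1.25 in *Hp1α/β* mutant ESCs (21.7, 25.6 and 21.7 CPM) and 1.81 in *Hp1β/γ* mutant ESCs. In *Hp1α/γ* mutant ESCs it was 1.07, but replicate 2 stood at 27.0 CPM against 14.4 and 13.01 CPM, and without that library it was 0.72. That call was also lost without replicate 1 or replicate 2 of set B (adjusted p of 0.05 and 0.0507), with set A as the control (0.87) and on TPM (0.56). In the triple mutant, with 18.5, 17.98 and 20.1 CPM, the log2 fold change was 0.94 (adjusted p = 2.08e-08 by edgeR), just under the threshold, and it passed at 1.17 with set B as the control and at 1.29 on TPM. *Id3* was thus the only one of the 3 *Id* genes above *wild-type* in all 7 Hp1 mutants, with either *wild-type* set. In SETDB1-deficient cells it had 32.7, 30.1 and 29.7 CPM against 17.4, 21.5 and 20.1 CPM, a log2 fold change of 0.64 (adjusted p = 4.07e-07), which passed the threshold at 1.06 on TPM.

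The loss of *Hp1α* from *Hp1β*-deficient cells was compared after the data were seen, because the *Id* genes stood so far apart in the single and the double mutant. Against *Hp1β* mutant ESCs, *Hp1α/β* mutant ESCs had lower *Id1*, *Id2* and *Id3*, by −2.74, −1.82 and −1.12 on the log2 scale (standard errors 0.057, 0.062 and 0.075, adjusted p of 2.07e-10, 6.23e-09 and 6.14e-07 by edgeR). These 3 were the genes called among the 9, where 6.74% of all genes were called and 2.64% were lower. The *Id3* value was −0.99 on TPM, and the other 2 calls held in all 13 alternatives. Against *Hp1α* mutant ESCs, *Hp1α/β* mutant ESCs had higher *Hand1* (log2 fold change 1.66) and *Smad6* (1.14, or 0.81 on TPM), the 2 genes called (4.2% of all genes, or 2.16% higher). The constitutive mutants are separate clones, and clone and genotype cannot be told apart.

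*Smad6* (ENSMUSG00000036867, chromosome 9, 63953076 to 64022059, minus strand) encodes an inhibitory SMAD that is induced by BMP signals and dampens them. It was at 6.43, 4.85 and 5.67 CPM in set A and at 1.25, 2.14 and 2.13 CPM in triple mutant cells, the lowest of all groups. It fell by 1.64 on the log2 scale (standard error 0.22, adjusted p = 1.72e-06 by edgeR). With set B as the control the value was −0.96, and on TPM it was −0.87. None of the other 6 Hp1 mutants was called, and their log2 fold changes ran from −0.71 to 0.44. With the other *wild-type* set, however, *Smad6* was called higher in *Hp1α/β* mutant ESCs (1.11 against set B, adjusted p = 6.69e-05 by edgeR) and lower in *Hp1α/γ* mutant ESCs (−1.17 against set A, adjusted p = 0.00309). *Hp1α/β* mutant ESCs had the highest level of all groups, at 6.90, 8.81 and 7.29 CPM, and from there the triple mutant was lower by −2.09 (standard error 0.21, adjusted p = 1.39e-07), a call that held in all 13 alternatives. The effect in the triple mutant differed by −1.32 from that in *Setdb1* Δ/Δ cells (standard error 0.29, adjusted p = 0.000401 by edgeR), where *Smad6* had a log2 fold change of −0.35 and was not called. On TPM this difference was −0.96.

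*Msx2* (ENSMUSG00000021469, chromosome 13, 53466884 to 53473074, minus strand) had its highest level in triple mutant cells, with 5.77, 4.47 and 3.93 CPM against 0.786, 0.693 and 0.866 CPM in set A. The groups lay far apart, and the rise was 5.89-fold (log2 fold change 2.56, standard error 0.26, adjusted p = 3.39e-08 by edgeR). It also rose in *Hp1β* mutant (log2 fold change 1.47), *Hp1γ* (1.29), *Hp1α/β* (1.10) and *Hp1β/γ* mutant ESCs (1.41), all at 1.504 to 2.53 CPM. On log2(TPM + 1), which compresses genes this low, those of the *Hp1β*, *Hp1γ* and *Hp1β/γ* mutants were 0.67, 0.63 and 0.62, and that of *Hp1α/β* mutant ESCs had an adjusted p of 0.0573 without its replicate 2 and a value of 0.95 with set B as the control. Of the 7 genes tested in both, *Msx2* alone was called higher in triple mutant cells and in cells without SETDB1 on counts, and on TPM *Id3* passed in both. In *Setdb1* Δ/Δ cells *Msx2* was at 0.757, 1.24 and 1.002 CPM, against 0.398, 0.335 and 0.234 CPM in *Setdb1* F/F ESCs (log2 fold change 1.59, standard error 0.38, adjusted p = 0.00111 by edgeR), from 15 to 26 counts per library against 4 to 8 in the control, so that it passed the filter on low counts only through the higher group.

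*Msx1* (ENSMUSG00000048450, chromosome 5, 37820485 to 37824583, minus strand) was near the limit of detection in *wild-type* ESCs, with 3 to 8 counts per library, and passed the filter on low counts in 5 of the 7 Hp1 comparisons. It could pass only where the mutant was high, so these 5 calls are not read as a pattern. In the triple mutant it had 1.03, 1.04 and 1.08 CPM against 0.185, 0.370 and 0.337 CPM in set A (log2 fold change 1.78, standard error 0.44, adjusted p = 0.00108 by edgeR). In *Hp1β* and *Hp1β/γ* mutant ESCs its log2 fold changes were 1.80 and 2.34. The calls in *Hp1α* (1.31, adjusted p = 0.0295) and *Hp1α/β* mutant ESCs (1.4, adjusted p = 0.0246) were lost with DESeq2 (adjusted p of 0.0733 and 0.0559), without a filter, and when any 1 library of the former comparison was left out (1.06 to 1.5). For *Hp1α/β* mutant ESCs they were lost without replicate 1 or 3 of the mutant (1.23 and 1.43) or of set A (1.15 and 1.49).

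*Hand1* (ENSMUSG00000037335, chromosome 11, 57828705 to 57832818, minus strand), a factor of trophoblast and heart mesoderm, showed the widest range of the 9. It was at 2.78, 3.93 and 3.56 CPM in set A, at 20.1, 15.8 and 15.4 CPM in *Hp1β* mutant ESCs, and at 10.5, 11.03 and 12.3 CPM in *Hp1α/β* mutant ESCs, without overlap. It rose 4.93-fold and 3.28-fold in these mutants (log2 fold changes 2.30 and 1.71, standard errors 0.15 and 0.15, adjusted p of 6.35e-07 and 5.1e-08 by edgeR). In *Hp1β/γ* mutant ESCs it had 20.3, 19.0 and 19.8 CPM against 4.91, 5.78 and 5.74 CPM in set B, a log2 fold change of 1.84. In *Hp1α/γ* mutant ESCs it was lower, at 1.66, 1.43 and 1.49 CPM, and fell by 1.88 on the log2 scale (standard error 0.19, adjusted p = 0.000307 by edgeR; −1.80 without replicate 2). Every constitutive mutant lacking *Hp1β* thus lay above its control, while *Hp1α* and *Hp1γ* mutant ESCs were not called (log2 fold changes 0.06 and 0.40).

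In triple mutant cells *Hand1* had 6.98, 8.54 and 6.86 CPM and rose by 1.09 on the log2 scale (standard error 0.17, adjusted p = 1.09e-05 by edgeR). This was 0.98 without replicate 2 of the triple mutant, 0.94 without replicate 1 of set A and 0.42 with set B as the control. In the *Setdb1* groups *Hand1* was at 2 to 6 counts per library, too few to be tested. Differences there were not detectable at this depth.

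**Figure D3:**
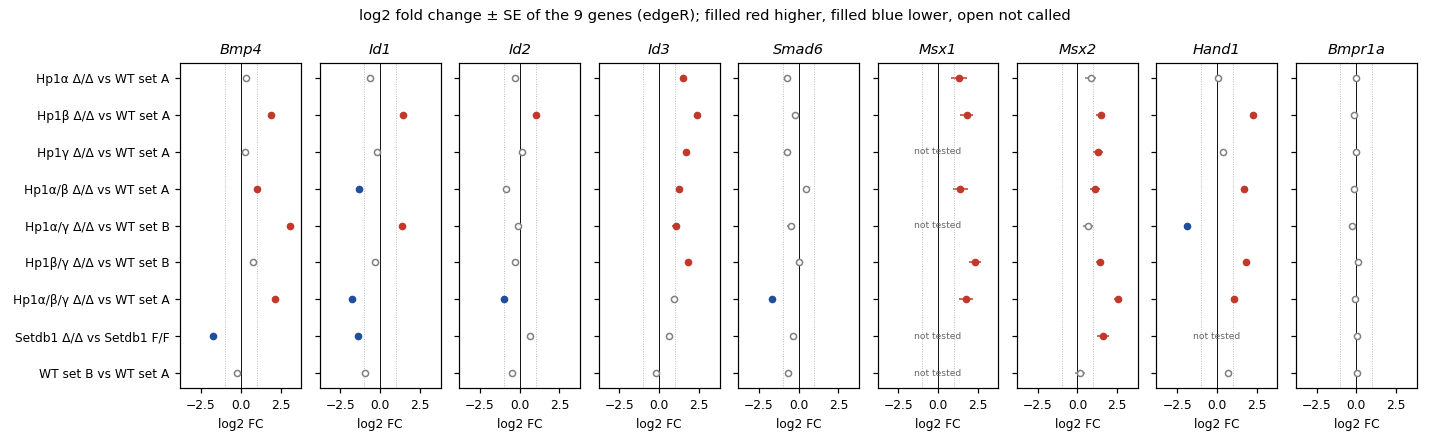
Log2 fold change (points) with its standard error (bars) for the 9 genes, 1 panel for each gene, in the 7 Hp1 mutants and *Setdb1* Δ/Δ cells against their controls and in *wild-type* set B against set A. Filled points passed the thresholds (red higher, blue lower), dotted lines mark a log2 fold change of 1 in either direction, and the panels show *Id1* on both sides of 0, *Id3* to the right of 0 in every Hp1 mutant and *Bmpr1a* near 0 throughout.

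Against *Hp1α/β* mutant ESCs, the genotype from which it was made, the triple mutant had 3 of the 9 genes called, where 41.4% of all genes were. *Bmp4* and *Msx2* were higher (log2 fold changes 1.11 and 1.44, standard errors 0.087 and 0.22, adjusted p of 6.13e-09 and 2.26e-05 by edgeR) and *Smad6* was lower, as given above. The *Id* genes were not called, although lower, with log2 fold changes of −0.47 (*Id1*), −0.19 (*Id2*) and −0.32 (*Id3*) and adjusted p of 0.000149, 0.0218 and 0.00352 by edgeR. *Hand1* was likewise lower without a call, at 7.46 against 11.3 CPM (log2 fold change −0.63, adjusted p = 0.000224 by edgeR). On TPM the values were −0.06 (*Id1*), 0.20 (*Id2*), 0.03 (*Id3*) and −0.23 (*Hand1*). The median of all genes was 0.35 on TPM. *Cbx1*, which both genotypes lack by their labels, was also lower in the triple mutant, at 46.2 ± 2.81 against 96.6 ± 1.76 CPM (SD, n = 3 each). Its log2 fold change was −1.09 (adjusted p = 9.27e-12 by edgeR). Whether the groups differed in more than the loss of *Hp1γ* was not tested.

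Of 61 other genes of the pathway, 53 could be tested in triple mutant cells, and 14 rose and 12 fell, 49.1% against the 42.3% of all genes. Their median log2 fold change was −0.31, against 0.04 over all genes. In *Setdb1* Δ/Δ cells 8 of 44 rose and 7 fell, 34.1% against 29.9%, with a median of 0.27 against 0.01. The shares were thus near those of all genes in both. They include genes such as *Gdf6*, *Gdf9* and *Smad9*, which were near 0 in the controls and passed the filter on low counts only through the group where they were high. In *Hp1β* mutant ESCs 4 of 48 rose and 2 fell, 12.5% against 9.1%.

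Among 12 other ligand genes of the BMP and GDF family, 3 of 10 tested rose in the triple mutant and 2 fell, against 42.3% of all genes called. *Gdf6* had 21 to 34 counts per library there against 0 to 2 in set A, *Gdf9* rose by a log2 fold change of 2.82 and *Bmp2* by 1.89 (adjusted p = 0.00075 by edgeR), all of them with a mean of at most 1.43 CPM there. No ligand of the 6 tested was called in *Setdb1* Δ/Δ cells. Of the 6 receptors, *Acvr2a*, a type II receptor, rose in the triple mutant (log2 fold change 1.26), and the related *Acvr2b* fell by 1.88, from 82.0 ± 4.89 to 22.8 ± 2.73 CPM (SD, n = 3 each). After the loss of *Setdb1*, the type I receptor *Bmpr1b* rose from 19.6 ± 1.09 to 82.4 ± 3.30 CPM (SD, n = 3 each; log2 fold change 2.06, adjusted p = 2.13e-16 by edgeR), and *Acvrl1*, an endothelial type I receptor, fell by 2.89. Of the 4 co-receptors only *Hjv*, the hemojuvelin gene, was called, higher in the triple mutant (log2 fold change 1.24) and lower in *Setdb1* Δ/Δ cells (−1.52).

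Of the 4 SMADs that carry the signal, *Smad9* was the one called, and it could be tested only where the mutant was high. It had 238 to 314 counts per library in triple mutant cells against 2 to 4 in set A (12.3 ± 1.55 CPM, SD, n = 3, against 0.141; adjusted p = 3.05e-14 by edgeR). In SETDB1-deficient cells it had 30 to 47 counts against 0 to 1 in *Setdb1* F/F ESCs (adjusted p = 5.61e-08). *Smad1*, *Smad5* and *Smad4* were not called in either. Of 5 intracellular inhibitors, the co-repressor genes *Skil* and *Ski* fell in the triple mutant, by 2.09 and 1.5 on the log2 scale (adjusted p of 8.66e-20 and 2.05e-16 by edgeR), and the list's median was −0.91. In *Setdb1* Δ/Δ cells *Smad7*, the other inhibitory SMAD, fell by 1.91 (adjusted p = 5.11e-14), from 100.3 ± 11.99 to 26.9 ± 1.10 CPM (SD, n = 3 each).

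Of 17 extracellular antagonists and modulators, 14 were tested in the triple mutant, and 3 rose and 4 fell, against 42.3% of all genes called. *Bmper*, which binds BMPs, rose from 0.985 ± 0.296 to 16.5 ± 0.497 CPM (SD, n = 3 each; log2 fold change 4.03). *Fstl1*, a follistatin-like gene, fell by 3.46, from 217 ± 1.80 to 20.1 ± 0.229 CPM (SD, n = 3 each), and *Chrdl1*, a chordin-like gene, fell by 2.91 (1 to 6 counts against 16 to 27). After the loss of *Setdb1*, *Bmper* also rose (log2 fold change 2.17), while *Tll1*, a protease that cleaves chordin, and *Nbl1* fell by 3.42 and 2.21. Of 13 other target genes, 10 were tested in the triple mutant, and 5 rose and 3 fell, where 42.3% of all genes were called. Their median log2 fold change was 0.91. *Cdx2* and *Gata2* rose (2.25 and 1.94) and *Sp5*, better known as a Wnt target, fell by 1.55. In SETDB1-deficient cells 8 were tested, and 4 rose and 1 fell, where 29.9% of all genes were called. *Id4*, the remaining *Id* family member, was lower by −2.49, and *Tfap2a* and *Isl1* were higher by 1.90 and 1.54.

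**Figure D4:**
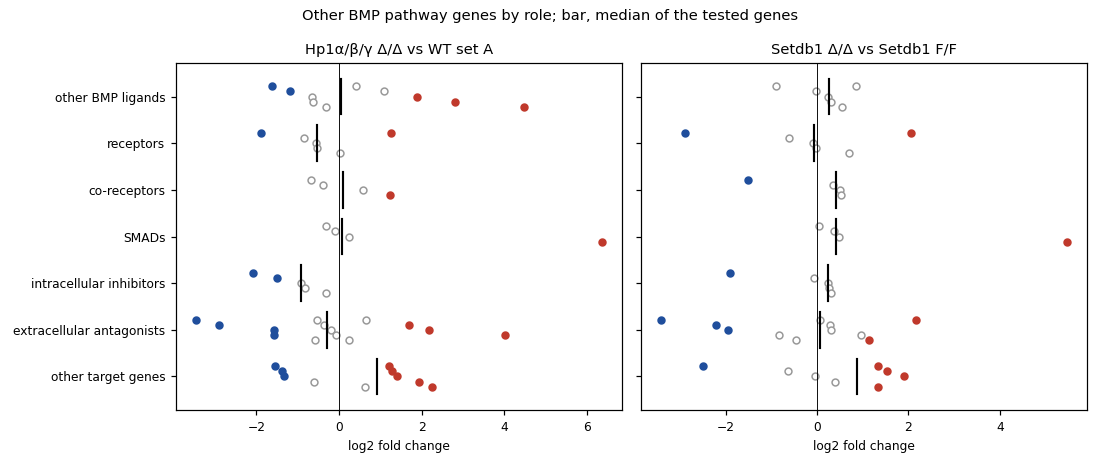
Log2 fold changes of the other BMP pathway genes, grouped by role, in triple mutant cells against *wild-type* set A (left, 53 genes) and in *Setdb1* Δ/Δ cells against *Setdb1* F/F ESCs (right, 44 genes). Filled points passed the thresholds (red higher, blue lower) and bars are medians, and the single point on the far right of each panel is *Smad9*.

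Markers of several cell types differed in level beside these genes, and in bulk RNA fewer cells of a type and less RNA per cell cannot be told apart. Of all genes tested, 42.3% were called in triple mutant cells. There 5 of 7 markers of undifferentiated ESCs fell, and their summed level was 1352 to 1390 CPM against 3083 to 3162 CPM in set A. Of 8 primitive endoderm markers, 6 were tested and 4 rose, among them *Gata4* (9.42 against 0.798 CPM), while *Lama1* fell and the summed level dropped from 164 to 169.6 CPM to 58.7 to 63.7 CPM. Of 6 neural markers, 3 of the 5 tested rose (164.9 to 173 against 50.6 to 59.4 CPM in sum). Trophoblast markers, which share *Cdx2* and *Gata3* with the list of other targets, summed to 73.8 to 79.6 CPM against 51.2 to 53.8 CPM, and 3 of 7 tested rose and 1 fell. Of 8 mesoderm markers 5 were tested, and 2 rose and 1 fell (5.46 to 7.62 against 8.03 to 8.96 CPM in sum).

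Markers of feeder fibroblasts were low, and their levels are given as a description. The shares of all genes called were 42.3% in the triple mutant, 23.1% in *Hp1α/γ* mutant ESCs and 29.9% in *Setdb1* Δ/Δ cells. They were 9.1% in *Hp1β*, 4.87% in *Hp1α*, 5.59% in *Hp1γ* and 8.15% in *Hp1α/β* mutant ESCs. In the triple mutant 1 of the 6 tested feeder markers rose and 3 fell (10.15 to 11.1 against 24.1 to 24.8 CPM in sum), and in *Hp1α/γ* mutant ESCs all 6 tested fell (9.75 to 11.1 against 41.9 to 50.4 CPM). *Lum* and *Postn* had at most 9 counts in any of the 33 libraries and were at 0 in all *Setdb1* F/F libraries. They do not stand for the list, since the 8 feeder markers summed to 10.12 to 11.38 CPM in *Setdb1* F/F ESCs. In *Hp1β* mutant ESCs, where *Bmp4* also rose, 1 of 6 tested feeder markers rose and none fell (30.7 to 34.8 against 24.1 to 24.8 CPM in sum). There the 7 ESC markers were not called (3243 to 3411 CPM in sum), and 4 of the 7 tested trophoblast markers rose (94.5 to 103 against 51.2 to 53.8 CPM). The trophoblast sum was higher still in *Hp1α* (116 to 126.6 CPM), *Hp1γ* (123 to 128.7 CPM) and *Hp1α/β* mutant ESCs (169.8 to 185.7 CPM), where 1, 1 and 3 of these markers rose and 1 fell in *Hp1γ* mutant ESCs. The sums do not stand for the whole list, since its median log2 fold changes were −0.37, −0.57 and 0.70 in these mutants, in the same order. In *Hp1α/γ* mutant ESCs *Nanog* and *Zfp42* rose among the 7 ESC markers (4705 to 6092 against 3053 to 3100 CPM in sum), and 2 of 5 tested trophoblast markers fell. In *Setdb1* Δ/Δ cells none of the 7 ESC markers was called (4117 to 4165 against 5340 to 5362 CPM in sum), 4 of 8 primitive endoderm markers fell and 1 rose (36.1 to 39.8 against 198 to 204.7 CPM), 2 of 3 tested feeder markers fell and 3 of 4 tested neural markers rose. The part of these cell types in the results for the 9 genes was not tested.

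Across the 11 group means of log2 CPM, the genes most like *Bmp4* among 10761 genes with a mean of at least 5 CPM were *Ccs* (Pearson r = 0.966), *Hbegf* (0.953), *Ciao2a* (0.95), *Znrd1* (0.948) and *Lmna* (0.922). Among those most like *Id1* were *Dtymk* (0.918), *Mir124a-1hg* (0.895), *Hp1bp3* (0.885) and *Zfp423* (0.882). None of the 9 genes was among them, but *Smad6*, *Msx1* and *Msx2*, with means under 5 CPM over the libraries, could not be. Between members r was 0.5 for *Bmp4* with *Id1*, 0.24 for *Bmp4* with *Id3*, 0.09 for *Id1* with *Id2*, 0.26 for *Id1* with *Id3* and 0.87 for *Msx1* with *Msx2*. The 11 points share their libraries' depth and culture, and the *Setdb1* groups have a control of their own, so these values are descriptions.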

How the data were processed

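RNA-seq libraries were prepared with a TruSeq kit and sequenced by the authors. Their processing notes name TopHat2 version 2.1.1, RSEM, edgeR and GRCm38.p5. The 8 deposited tables hold estimated (expected) counts and TPM per gene made by the authors, together with fold changes, p-values and gene ontology terms, which were not used. Estimated counts were rounded to whole numbers (87.1% were whole as deposited), and columns shared by tables were identical. Total counts were 17331005 to 25743236 per library (median 21522625). Standard errors of log2 fold changes were taken from edgeR, as the absolute log2 fold change over the square root of its F statistic. They include the spread between the libraries of a group.

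Groups follow the sample labels. Each comparison was fitted on its 6 libraries with edgeR 4.0.16 (R 4.3.3), using TMM scaling, filterByExpr with a minimum count of 10 and the quasi-likelihood test with Benjamini-Hochberg adjustment over all genes tested. Calls required a log2 fold change over 1 in either direction with an adjusted p under 0.05. The difference of effects was an interaction term over 12 libraries. Pipelines were tested on simulated data. Alternatives were DESeq2 1.42.0, other scaling and filters, a joint fit, the other control, a replicate block, leaving out each library and, added after seeing the data, limma 3.58.1 on log2(TPM + 1) for genes with at least 1 TPM in 3 libraries. Gene positions came from GENCODE M21 (GRCm38).

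The 9 genes and all lists were chosen with earlier results of these data known. The text names the 9 genes throughout, up to 3 called genes of the largest absolute change per list, the 5 genes most like *Bmp4* and *Id1* (a gene of the latter is not reported here), and the targeted genes. *Smad1*, *Smad4*, *Smad5*, *Lum*, *Postn*, *Gata4* and *Lama1* were named after their values were seen, as were the overlapping genes.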

Additional observations from a re-analysis of the deposited data

Results flagged for a closer look

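For 3 of the 9 genes the effect in the *Hp1α/β/γ* Δ/Δ triple mutant differed from that in *Setdb1* Δ/Δ cells by an interaction test (quasi-likelihood test of edgeR, Benjamini-Hochberg adjusted), past the same thresholds. Of all genes, 31.9% were called for such a difference, so the share among the 9 was near that of all genes. The effects were taken against different controls, *wild-type* set A and *Setdb1* F/F ESCs. The log2 difference was 3.85 for *Bmp4*, higher in 3 of 3 triple mutant libraries and lower in 3 of 3 *Setdb1* Δ/Δ libraries than in all their controls (adjusted p = 1.02e-19). It was −1.69 for *Id2* (adjusted p = 8.98e-13), which was lower in 3 of 3 and higher in 3 of 3, but −0.87 and under the threshold with *Hp1α/β* mutant ESCs in place of *wild-type* set A. It was −1.32 for *Smad6* (adjusted p = 0.000401), which was lower in 3 of 3 triple mutant libraries while the *Setdb1* groups overlapped, and −0.96 on TPM, under the threshold. The groups hold 3 libraries each and were not searched for single outlying libraries.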

How the results depend on the processing

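Of 1648 values of single genes under alternative settings, 1554 kept their direction and side of the thresholds, 52 lost a call, 42 gained one and none reversed, and 39 changed sign where neither value was called. Of the 42 gained, 31 came from dropping the fold threshold. On an adjusted p alone, the number of the 9 genes called became 5 in *Hp1α* Δ/Δ, 5 in *Hp1γ* Δ/Δ, 7 in *Hp1β/γ* Δ/Δ and 5 in *Setdb1* Δ/Δ cells, 7 in the triple mutant against *Hp1α/β* Δ/Δ ESCs, 4 between the *wild-type* sets, and 6 each for *Hp1α/β* Δ/Δ against *Hp1β* Δ/Δ and against *Hp1α* Δ/Δ ESCs. Of all genes, 45.0%, 46.7%, 51.7%, 78.9%, 80.6%, 24.8%, 44.4% and 35.5% passed this threshold in those comparisons, in the same order. On TPM it became 1 in *Hp1α* Δ/Δ, 4 in *Hp1β* Δ/Δ, 1 in *Hp1γ* Δ/Δ, 3 in *Hp1α/β* Δ/Δ, 2 in *Hp1α/γ* Δ/Δ and 2 in *Hp1β/γ* Δ/Δ ESCs, and 1 for *Hp1α/β* Δ/Δ against *Hp1α* Δ/Δ ESCs. Calls over all genes fell on TPM as well. In the same order they went from 772 to 252, 1442 to 486, 884 to 248, 1292 to 505, 3657 to 2338, 1929 to 932 and 661 to 194. For *Hp1α* Δ/Δ ESCs the number of the 9 genes called was 1 with DESeq2, without a filter and with a floor of 10 counts per library. That floor took the calls over all genes there from 772 to 469. With set B as the control the triple mutant had 4 genes called, all higher. The cause was not tested. Leaving out 1 library gave 1 to 2 genes in *Hp1α* Δ/Δ, 6 to 7 in *Hp1β* Δ/Δ, 4 to 6 in *Hp1α/β* Δ/Δ, 3 to 4 in *Hp1α/γ* Δ/Δ and 6 to 7 in the triple mutant, and the main number in the other comparisons.

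Over all genes, a minimum of 10 counts in every library took the calls from 7400 to 4866 in the triple mutant, from 4918 to 3058 in *Setdb1* Δ/Δ cells and from 1929 to 1139 in *Hp1β/γ* Δ/Δ ESCs, and TPM took them from 1442 to 486 in *Hp1β* Δ/Δ and from 1292 to 505 in *Hp1α/β* Δ/Δ ESCs. The share of calls that were higher went on TPM from 59.5% to 78.5% in the triple mutant (61.4% to 80.4% against *Hp1α/β* Δ/Δ ESCs), from 62.0% to 84.9% in *Setdb1* Δ/Δ cells, from 29.2% to 16.3% in *Hp1α/γ* Δ/Δ ESCs and from 45.0% to 32.8% between the *wild-type* sets.

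Replicate numbers did not pair the libraries. Deviations of same-numbered libraries correlated between −0.14 and 0.19, and in 0 comparisons were all pairs over 0.1. A replicate block kept all 112 gene values on their side of the thresholds, with 7 genes called in *Hp1β* Δ/Δ ESCs and 7 in the triple mutant as before.

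Depth limits *Msx1* (2 to 28 counts per library), *Hand1* in the *Setdb1* groups (2 to 6) and *Msx2* in *Setdb1* F/F ESCs (4 to 8), where small differences were not detectable.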
